A study of Homo sapiens with 8 samples.

Results

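The genes described here are 45 genes of S phase and DNA replication, chosen by name for their known roles, with earlier results of these data known, and kept where some library held at least 10 reads. All 45 met that count among the 33045 gene names of the count table, and all 45 passed the filter on low counts, with a highest count per gene of at least 1578 reads. CDC45 is listed there under its older name, CDC45L. The study sequenced RNA from 2 acute myeloid leukaemia cell lines that had been given vehicle or DDP38003, which inhibits LSD1 (KDM1A), a histone demethylase. KASUMI-1, a line carrying the RUNX1::RUNX1T1 fusion, carries the label sensitive, and its RNA was taken at 6 and 72 h. THP-1, of monocytic origin and with an MLL rearrangement, carries the label resistant, and its RNA was taken at 24 and 72 h. The groups are KASUMI-1 with 0.5 µM DDP38003 (LSD1i) at 6 h and at 72 h, KASUMI-1 with vehicle at 6 h and at 72 h, THP-1 with 0.5 µM LSD1i at 24 h and at 72 h, and THP-1 with vehicle at 24 h and at 72 h, with 1 library in each, 8 in all. The submitters chose the times as the earliest and the last at which mTOR signalling had responded, so a first time in KASUMI-1 and in THP-1 is not the same exposure.

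DNA replication starts at origins that are licensed in G1, when CDC6 and CDT1 load the MCM2 to MCM7 ring onto DNA. In S phase CDC45 and the GINS complex turn that ring into an active helicase, polymerase alpha with primase lays down primers, the clamp loader RFC places the PCNA clamp, and polymerases delta and epsilon extend the strands. Most of these genes are transcribed under E2F control around the G1/S boundary. In a growing leukaemia culture their RNA can therefore vary with how many cells are passing into S phase, which was not measured here. Enzymes of deoxynucleotide synthesis and the CAF-1 histone chaperone are made on the same schedule.

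The libraries held 23722972 to 45970766 reads counted in genes, and the shallowest was the KASUMI-1 vehicle library at 72 h. Marker genes followed the labelled lines: RUNX1T1 lay at 76.2 to 106 CPM (read counts scaled to library size with TMM factors) in KASUMI-1 and at 0.119 to 0.201 CPM in THP-1, and HOXA9 lay at 0.919 to 1.51 CPM in KASUMI-1 and at 53.2 to 56.3 CPM in THP-1. MEIS1, listed as a THP-1 marker, did not exceed 0.112 CPM in any library. CD3E of T cells, HBB of erythroid cells and COL1A1 of fibroblasts stayed at or near 0, none above 0.401 CPM, while the epithelial marker EPCAM stood at 127 to 166 CPM in every KASUMI-1 library. Counting used no strand, and 3 of the 45 genes share exon bases with a gene on the opposite strand: MCM7 with AP4M1 over 7.73% of its exons, TYMS with C18orf56 over 6.79% and CCNE2 with INTS8 over 9.68%. Reads of these 3 genes and of their partners cannot be told apart there.

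In KASUMI-1 with LSD1i, 11 of the 45 replication genes fell: MCM7, CDC45, GINS2 and GINS3 of the helicase, the licensing factor CDC6, FEN1, RPA2, UNG and TIPIN of the lagging strand, fork and repair, the nucleotide enzyme TK1, and CCNE1. They were called in the test that pools the 6 h and 72 h pairs (24.4%; edgeR's quasi-likelihood test, Benjamini-Hochberg adjusted p at most 0.05), against 5.09% of all 16060 genes tested called lower. No replication gene was called higher, against 7.02% of all genes. The 45 had a median log2 change of -0.33, against 0.02 over all genes, and 43 of them had a negative estimate (95.6%, against 47.8% of all genes). Summed over the 45 genes, KASUMI-1 held 4727 CPM with LSD1i at 6 h and 3650 CPM with LSD1i at 72 h, against 5134 CPM with vehicle at 6 h and 5219 CPM with vehicle at 72 h. In such bulk RNA, fewer cells in S phase and less of this RNA in each cell cannot be told apart. The test treats the 6 h and 72 h libraries of a line as repeats, with line and time as pairs; no label says that libraries came from separate cultures, so its p-values reflect nothing beyond how far these samples vary, and that variation may be technical. Without the 72 h pair the calls ended and the median was -0.12. The calls of CCNE1, TIPIN and RPA2 also ended without the 6 h pair, where the median was -0.48. Estimates of CCNE1 and TIPIN without the 72 h pair, -0.467 and -0.485, stayed close to those with both pairs. The spread is also shared with THP-1, and without the THP-1 24 h or 72 h pair 4 or 5 genes were called in KASUMI-1. With library totals in place of TMM factors only TIPIN was called (log2 change -0.48, adjusted p = 0.048), while the median stayed at -0.32.

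Helicase subunits and cofactors gave 4 of the 11 calls from 11 genes, and their median log2 change was -0.40. MCM7, a subunit of the MCM ring (NCBI36 chr7:99528340-99537363, minus strand), was at 335 CPM with LSD1i at 6 h and 261 CPM with LSD1i at 72 h, against 376 CPM with vehicle at 6 h and 480 CPM with vehicle at 72 h. Both LSD1i libraries were below both vehicle libraries, and the vehicle library at 72 h was the highest. The log2 change was -0.53 ± 0.16 (SE; adjusted p = 0.0442). CDC45, which joins the ring to form the active helicase (NCBI36 chr22:17846982-17888135, plus strand), stood at 67.0 CPM with LSD1i at 6 h and 44.0 CPM with LSD1i at 72 h, against 73.1 CPM with vehicle at 6 h and 80.9 CPM with vehicle at 72 h. The groups did not overlap, most of the gap came at 72 h, and the log2 change was -0.50 ± 0.15 (adjusted p = 0.0407). Without the 72 h pair MCM7 was at -0.17 and CDC45 at -0.13, and neither was called.

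Of the 4 subunits of GINS, the complex that holds the helicase together, GINS2 and GINS3 were called and GINS1 and GINS4 were not. GINS2 (NCBI36 chr16:84268782-84280089, minus strand) was at 51.9 CPM with LSD1i at 6 h and 40.6 CPM with LSD1i at 72 h, against 68.8 CPM with vehicle at 6 h and 58.4 CPM with vehicle at 72 h, a log2 change of -0.47 ± 0.12 (adjusted p = 0.0203). GINS3 (NCBI36 chr16:56983924-56997548, plus strand) was at 18.4 CPM with LSD1i at 6 h and 11.9 CPM with LSD1i at 72 h, against 22.7 CPM with vehicle at 6 h and 18.7 CPM with vehicle at 72 h, a log2 change of -0.47 ± 0.15 (adjusted p = 0.0426). In both genes the LSD1i libraries lay below both vehicle libraries, although the LSD1i library at 6 h and the vehicle library at 72 h of GINS3 were close. GINS1 had a log2 estimate of -0.02 and GINS4 of -0.33. Without the 72 h pair GINS2 was at -0.41 and GINS3 at -0.31, and neither was called. The other 5 MCM subunits had estimates between -0.48 (MCM2, adjusted p = 0.0706) and -0.16 (MCM3), and none passed the threshold.

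The 250 bases before the annotated start of MCM7 and of GINS2 are shown because, of the 10 genes called lower in KASUMI-1 with a promoter in the table, these 2 hold E2F letters there; the windows of CDC45 and GINS3, also called, hold none. They are RefSeq sequences of GRCh38.p14, read 5′ to 3′ on the strand of the gene, both minus. Capitals mark the letters searched for on both strands: the E2F letters TTTGGCGC, TTTCCCGC, TTTGCCGC and TTTCGCGC, and CCAAT, the box bound by NF-Y. MCM7 lies at chr7:100101398-100101647 and GINS2 at chr16:85688955-85689204.
MCM7: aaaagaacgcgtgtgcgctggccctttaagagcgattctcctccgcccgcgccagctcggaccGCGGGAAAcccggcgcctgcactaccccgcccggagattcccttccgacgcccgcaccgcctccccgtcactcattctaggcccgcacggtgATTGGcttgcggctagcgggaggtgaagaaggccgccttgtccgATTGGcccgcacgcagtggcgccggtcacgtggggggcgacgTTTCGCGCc
GINS2: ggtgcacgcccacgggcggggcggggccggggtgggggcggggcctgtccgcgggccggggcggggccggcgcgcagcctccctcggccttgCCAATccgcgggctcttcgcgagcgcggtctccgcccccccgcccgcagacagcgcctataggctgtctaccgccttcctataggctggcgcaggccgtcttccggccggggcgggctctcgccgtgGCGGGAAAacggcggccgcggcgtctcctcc
The MCM7 window holds 2 E2F matches and 2 CCAAT matches, and the GINS2 window holds 1 E2F match and 1 CCAAT match.

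Licensing factors were represented by CDC6, CDT1 and MCM10, and CDC6 was the 1 of 3 called, with a median log2 change of -0.28. CDC6, which loads the MCM ring (NCBI36 chr17:35697672-35712939, plus strand), stood at 102 CPM with LSD1i at 6 h and 68.3 CPM with LSD1i at 72 h, against 120 CPM with vehicle at 6 h and 101 CPM with vehicle at 72 h. The LSD1i library at 6 h lay level with the vehicle library at 72 h, each pair differed the same way, and the log2 change of -0.40 ± 0.13 only just passed (adjusted p = 0.0497; -0.23 and not called without the 72 h pair). CDT1, the partner of CDC6 in loading, was at 36.3 CPM with LSD1i at 6 h and 48.1 CPM with LSD1i at 72 h, against 38.2 CPM with vehicle at 6 h and 67.6 CPM with vehicle at 72 h. Its level was higher at 72 h than at 6 h in both arms, and its estimate of -0.28 had an adjusted p of 0.246.

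Genes of the lagging strand, single-strand binding and repair gave 4 calls from 7, with a median log2 change of -0.39. FEN1, the flap endonuclease that trims Okazaki fragments (NCBI36 chr11:61316726-61321284, plus strand), stood at 124 CPM with LSD1i at 6 h and 86.5 CPM with LSD1i at 72 h, against 154 CPM with vehicle at 6 h and 162 CPM with vehicle at 72 h. It was below vehicle in both pairs and had the most negative log2 change of the 45 genes, -0.61 ± 0.14 (adjusted p = 0.0113), or -0.31 and not called without the 72 h pair. RPA2, a subunit of the single-strand binding protein RPA (NCBI36 chr1:28090637-28113844, minus strand), was at 148 CPM with LSD1i at 6 h and 112 CPM with LSD1i at 72 h, against 184 CPM with vehicle at 6 h and 153 CPM with vehicle at 72 h. The groups were separate by a small margin, and the log2 change was -0.39 ± 0.12 (adjusted p = 0.0464; -0.32 and not called without the 72 h pair). RPA1 and RPA3, the other subunits, had estimates of -0.23 and -0.24 and were not called.

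UNG, the uracil-DNA glycosylase that removes misincorporated uracil (NCBI36 chr12:108019798-108033181, plus strand), stood at 138 CPM with LSD1i at 6 h and 102 CPM with LSD1i at 72 h, against 171 CPM with vehicle at 6 h and 144 CPM with vehicle at 72 h, a log2 change of -0.40 ± 0.12 (adjusted p = 0.0414). TIPIN, which protects stalled forks together with TIMELESS (NCBI36 chr15:64416230-64436083, minus strand), stood at 23.3 CPM with LSD1i at 6 h and 15.3 CPM with LSD1i at 72 h, against 32.5 CPM with vehicle at 6 h and 22.0 CPM with vehicle at 72 h, a log2 change of -0.50 ± 0.13 (adjusted p = 0.0214). Both genes were lower at 72 h than at 6 h in both arms, and in TIPIN the arms overlap because the vehicle level at 72 h was below the LSD1i level at 6 h. Without the 72 h pair UNG was at -0.31 and TIPIN at -0.48, and neither was called. LIG1, the ligase that seals Okazaki fragments, had an estimate of -0.33 that did not pass (adjusted p = 0.199).

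In nucleotide supply TK1 was the 1 of 5 genes called, and the group's median log2 change was -0.34. TK1, the thymidine kinase of the salvage route (NCBI36 chr17:73681755-73694909, minus strand), was at 110 CPM with LSD1i at 6 h and 98.4 CPM with LSD1i at 72 h, against 126 CPM with vehicle at 6 h and 190 CPM with vehicle at 72 h. The vehicle library at 72 h stood well above the other 3, and the log2 change was -0.57 ± 0.16 (adjusted p = 0.0256; -0.19 and not called without the 72 h pair). TYMS, the target of thymidylate synthase inhibitors, and the ribonucleotide reductase subunits RRM1 and RRM2 had estimates of -0.34, -0.39 and -0.21, and DUT, which clears dUTP, of -0.08; none of these 4 passed.

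CCNE1, encoding the cyclin E that drives G1 cells into S phase (NCBI36 chr19:34994741-35007056, plus strand), stood at 23.3 CPM with LSD1i at 6 h and 24.3 CPM with LSD1i at 72 h, against 32.1 CPM with vehicle at 6 h and 33.7 CPM with vehicle at 72 h. The groups did not overlap, the gap was nearly the same at both times, and the log2 change was -0.47 ± 0.13 (adjusted p = 0.0282; still -0.47 without the 72 h pair, but not called). CCNE2, its paralogue, was at 40.7 CPM with LSD1i at 6 h and 29.6 CPM with LSD1i at 72 h, against 36.6 CPM with vehicle at 6 h and 25.1 CPM with vehicle at 72 h. It was above vehicle in both pairs, with an estimate of 0.20 that was not called (adjusted p = 0.34). E2F1, the transcription factor that drives this programme, had an estimate of -0.37 (adjusted p = 0.12).

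None of the clamp and clamp loader genes (0 of 6; median log2 change -0.13), of the polymerases and primase (0 of 7; median -0.21) or of the chromatin assembly and histone mRNA genes (0 of 3; median -0.32) was called in KASUMI-1. PCNA, the clamp itself, had an estimate of -0.26, and RFC5, a clamp loader subunit, came closest in its group with -0.38 (adjusted p = 0.0526). POLD1, the catalytic subunit of polymerase delta, stood at 50.2 CPM with LSD1i at 6 h and 41.5 CPM with LSD1i at 72 h, against 51.5 CPM with vehicle at 6 h and 86.8 CPM with vehicle at 72 h. Its 6 h pair was level and its 72 h pair was the widest of the 45 genes, and the estimate of -0.55 ± 0.19 did not pass (adjusted p = 0.0726). The CAF-1 subunits CHAF1A and CHAF1B had estimates of -0.39 and -0.32 (adjusted p = 0.118 and 0.19).

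**Figure D1:**
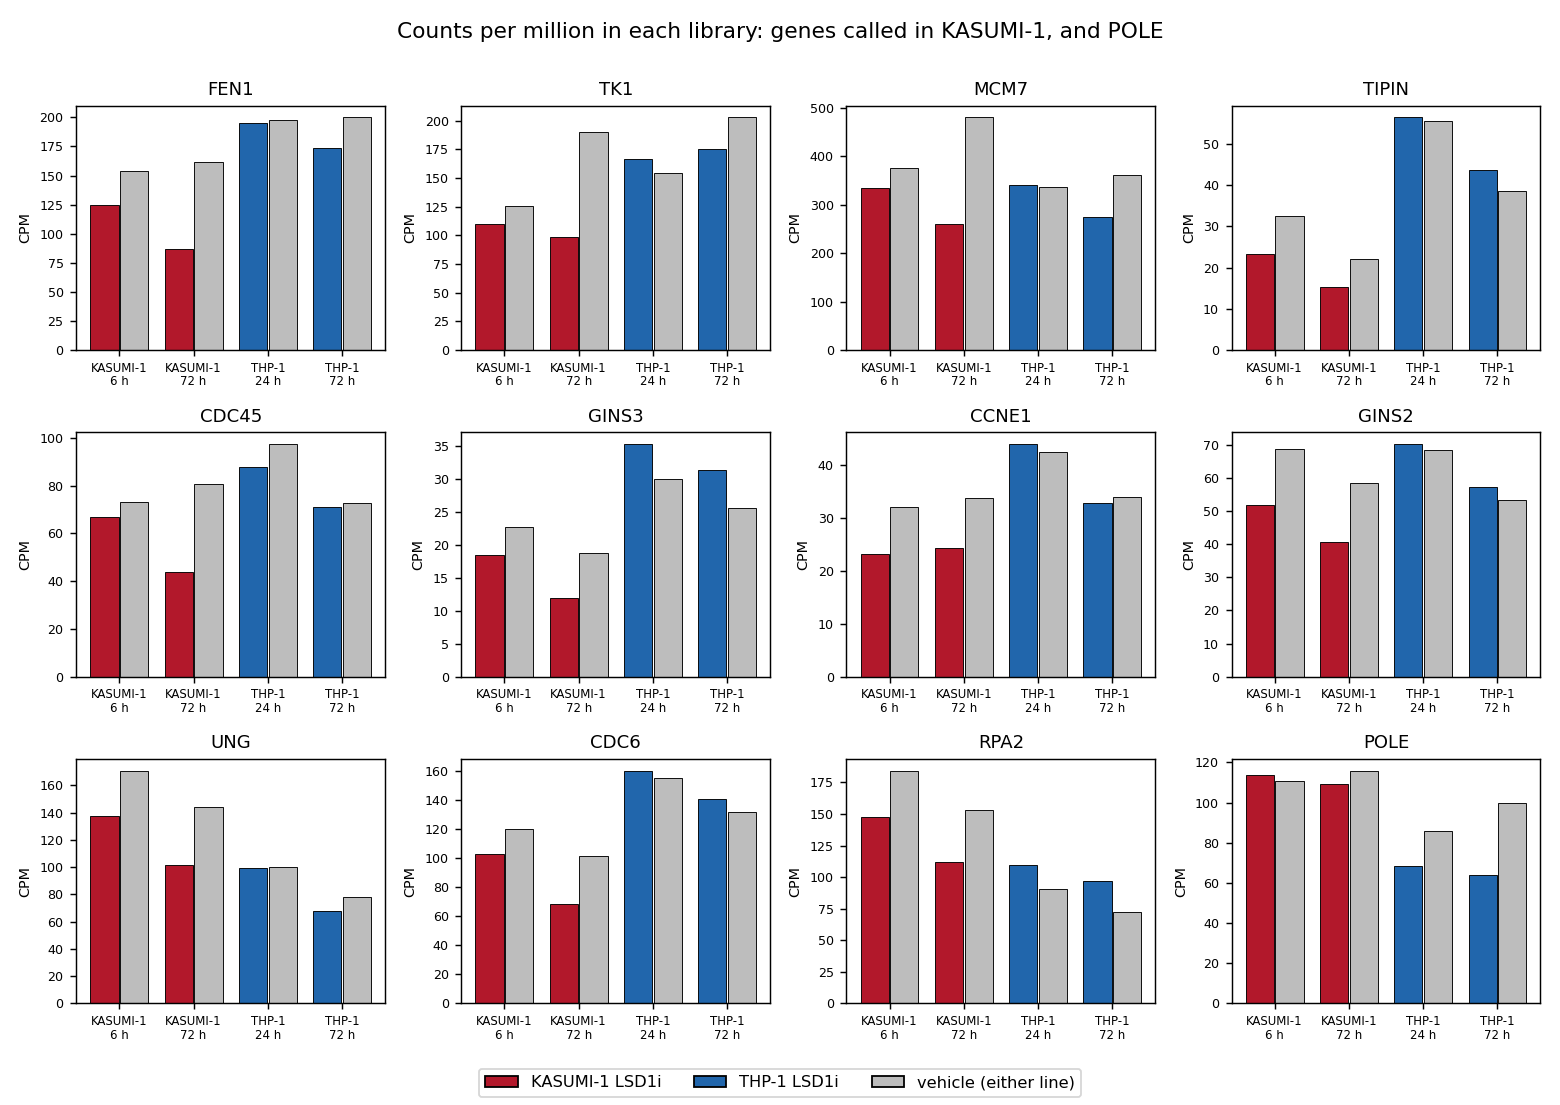
Bars give the CPM of each gene called lower in KASUMI-1, and of POLE, in each of the 8 libraries, 1 bar per library, with axes from 0 and LSD1i left of vehicle at each time. FEN1 was at 124 and 86.5 CPM with LSD1i in KASUMI-1 and at 154 and 162 CPM with vehicle, and its lowest THP-1 library, with LSD1i at 72 h, was at 173 CPM.

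Taken pair by pair, the difference in KASUMI-1 was small at 6 h and larger at 72 h. These single ratios have no replicate and carry no test, and their 95% intervals cover counting error only. At 6 h the median log2 ratio of LSD1i to vehicle over the 45 genes was -0.12 (all genes -0.001), 35 of 45 were below 0 (77.8%, against 50.1% of all genes), and none was more than 1.5-fold lower, against 4.71% of all genes. The lowest at 6 h were TIPIN at -0.48, CCNE1 at -0.46, GINS2 at -0.41 and RPA2 at -0.32, and the highest were RFC3 at 0.16, CCNE2 at 0.15, GINS1 at 0.13 and MCM3 at 0.12. At 72 h the median was -0.48 (all genes 0.04), 44 of 45 were below 0 (97.8%, against 44.5% of all genes), and 15 were more than 1.5-fold lower, against 10.8% of all genes.

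Those 15 came from every role but licensing and the clamp group: MCM2, MCM4, MCM5, MCM7, CDC45 and GINS3 of the helicase, POLD1 and POLE2 of the polymerases, FEN1 and LIG1 of the lagging strand, RRM1 and TK1 of nucleotide supply, CHAF1A and CHAF1B of CAF-1, and E2F1. The lowest was POLD1 at -1.07 (counting interval -1.16 to -0.97), followed by TK1 at -0.95, FEN1 at -0.90 and MCM7 at -0.88. At the other end CCNE2 was at 0.24 (counting interval 0.09 to 0.39), RFC3 and RFC1 were at -0.06 and POLE was at -0.08. The ratio was lower at 72 h than at 6 h for 44 of the 45 genes, all but CCNE2 (97.8%, against 44.3% of all genes). With library totals as the scale the 6 h median came to -0.01, with all genes at 0.09, and the 72 h median to -0.57.

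**Figure D2:**
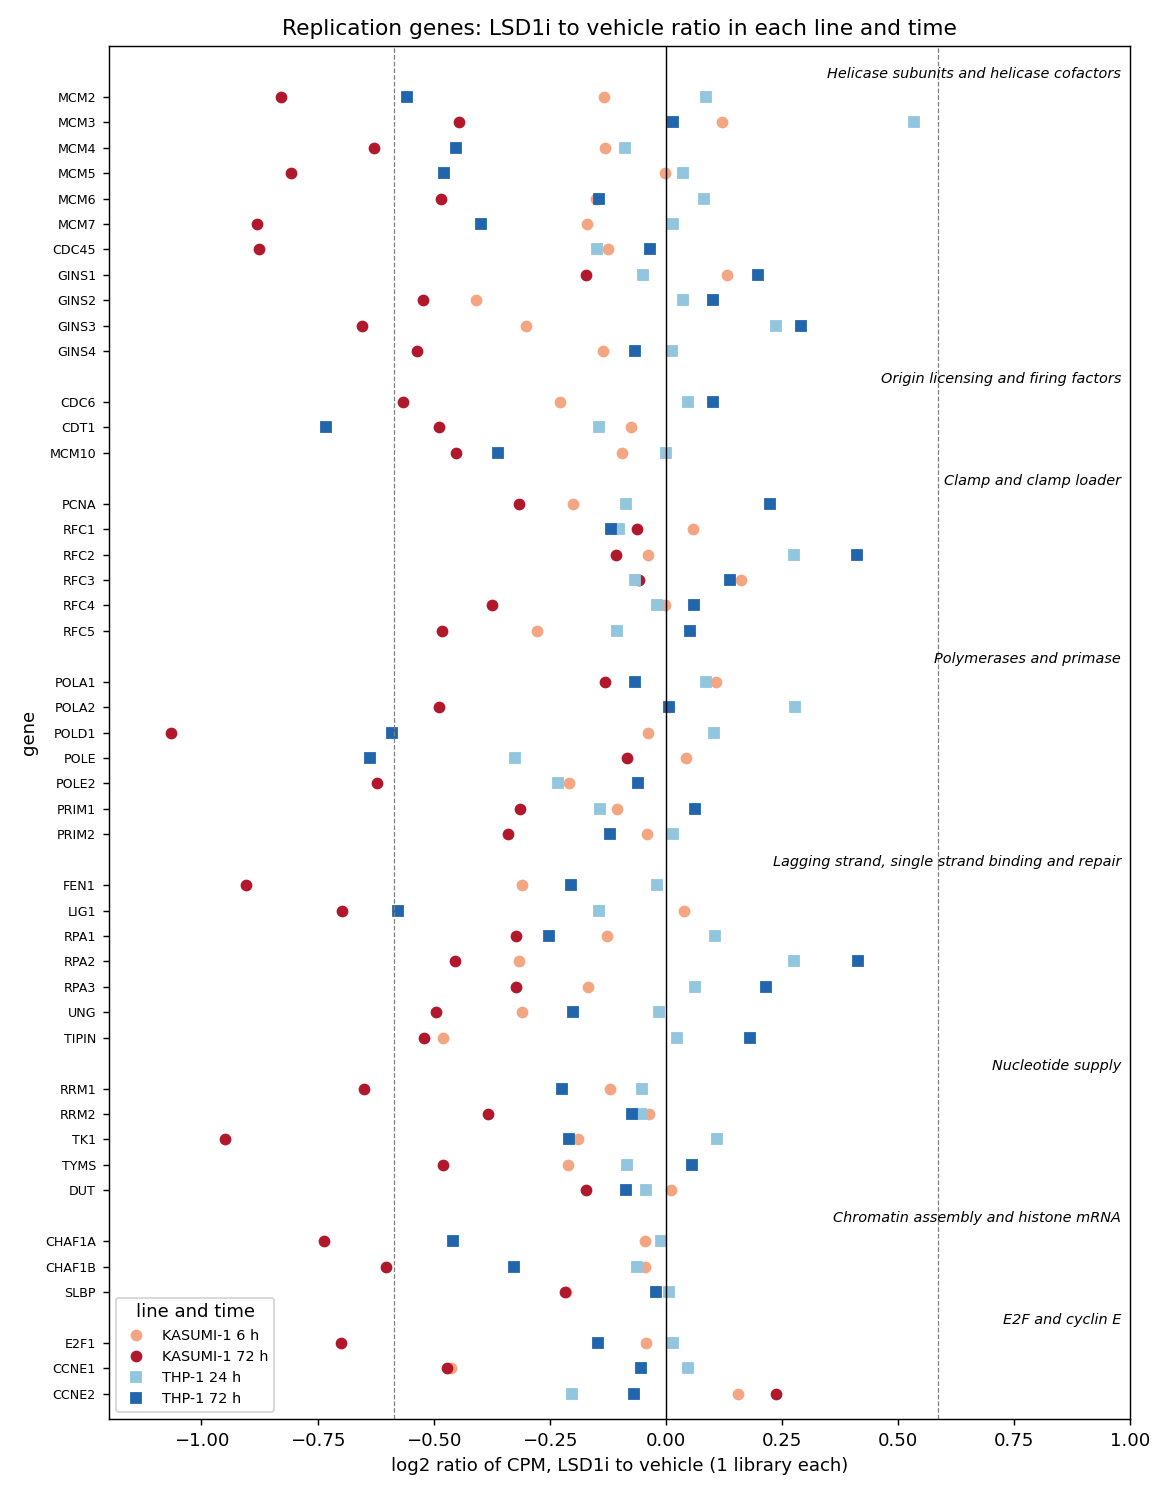
Log2 ratio of LSD1i to vehicle for each of the 45 genes, grouped by role, in each of the 4 pairs of libraries; 0 means equal levels. At 72 h in KASUMI-1 44 of 45 genes lie below 0, from POLD1 at -1.07 to CCNE2 at 0.24, while in THP-1 at 24 h the median is 0.001.

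**Figure D3:**
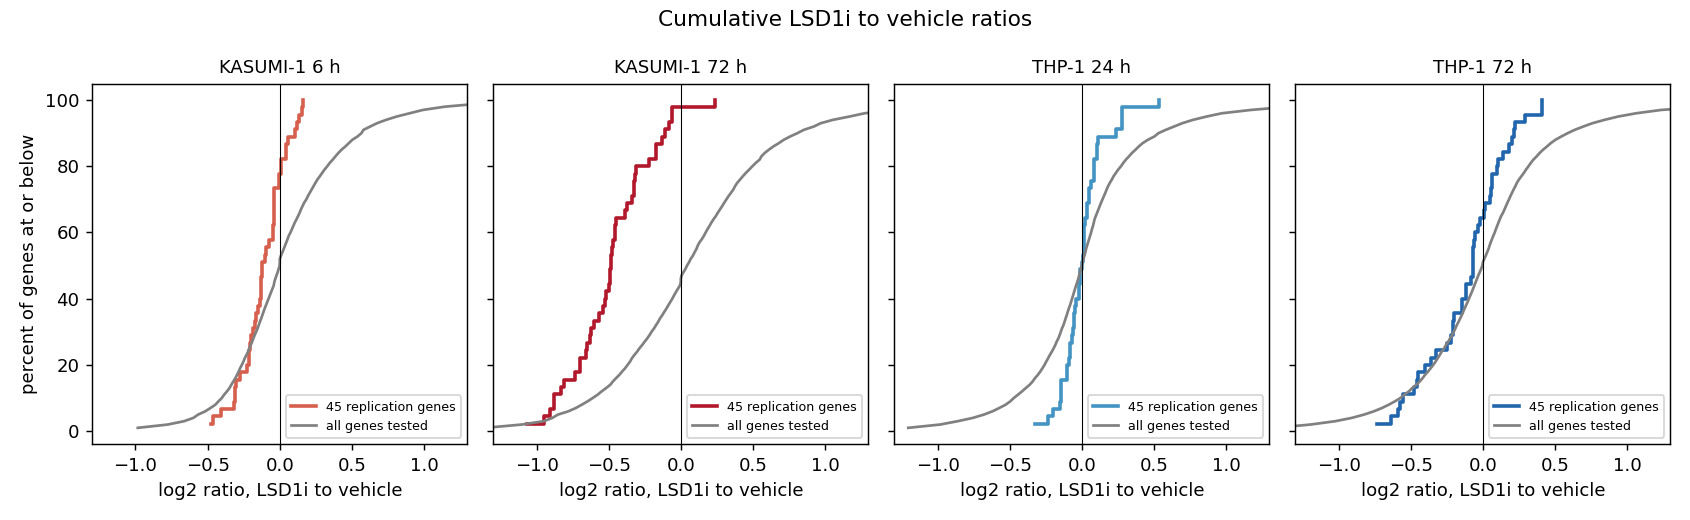
Cumulative share of genes, in percent, against the log2 ratio of LSD1i to vehicle, drawn for the 45 replication genes and for all 16060 tested genes in each pair. The curve of the replication genes lies left of that of all genes at 72 h in KASUMI-1, with medians of -0.48 and 0.04, and the curves share a median near 0 in THP-1 at 24 h, at 0.001 and 0.

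Levels at 72 h and 6 h in KASUMI-1 were also set against each other within each arm. Between the LSD1i libraries, 41 of the 45 genes were lower at 72 h than at 6 h (91.1%, against 47% of all genes). The median log2 ratio was -0.43 (all genes 0.01), and the other 4 genes were CDT1, RFC1, PRIM1 and CCNE1. The drop was not particular to the 45 genes. Of 30 genes of G2 and mitosis, a list taken up below, 30 were lower, with a median of -0.48. Of 32 other replication genes 30 were lower, with a median of -0.37. Between the vehicle libraries, 23 of 45 were lower at 72 h, with a median of -0.003; none was more than 1.5-fold lower, against 9.34% of all genes, and 3 were more than 1.5-fold higher, against 10.5% of all genes. These 3 were CDT1 at 0.82, POLD1 at 0.75 and TK1 at 0.60, a share below that of all genes, and with the GC trend of the libraries removed they were at 0.44, 0.37 and 0.28 and none of the 45 was past 1.5-fold. The same vehicle library at 72 h enters both this ratio and the LSD1i ratio at 72 h, so for these genes the 2 ratios are not independent.

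The GC content of the transcripts moved with these ratios. Over the 45 genes, whose GC content ran from 36.9% to 65.0% with a median of 48.2%, the 72 h ratio of LSD1i to vehicle in KASUMI-1 had a Pearson correlation with GC of -0.63 (Spearman -0.60), and the vehicle ratio of 72 h to 6 h had one of 0.72 (Spearman 0.61). These are descriptions across genes that share the same libraries. Over all 10287 genes with enough reads for this comparison the first correlation was -0.44. For the 6 h ratio of LSD1i to vehicle in KASUMI-1 it was -0.36 over these genes and -0.07 over the 45. When the GC trend of each library, taken over all genes, was removed, the 72 h median of the 45 genes was -0.50, 43 were below 0 and 17 were more than 1.5-fold lower (8.1% of all genes). POLD1 then stood at -0.66, TK1 at -0.60, FEN1 at -0.77 and CDC45 at -0.80, and CDT1 came to -0.08. The 6 h median came to -0.04 with 28 of 45 below 0. In the test over both times the trend left 9 genes called lower, 6 of the 11 and additionally RFC5, POLE2 and PRIM1. TK1, MCM7, CDC45, CCNE1 and UNG no longer passed.

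**Figure D4:**
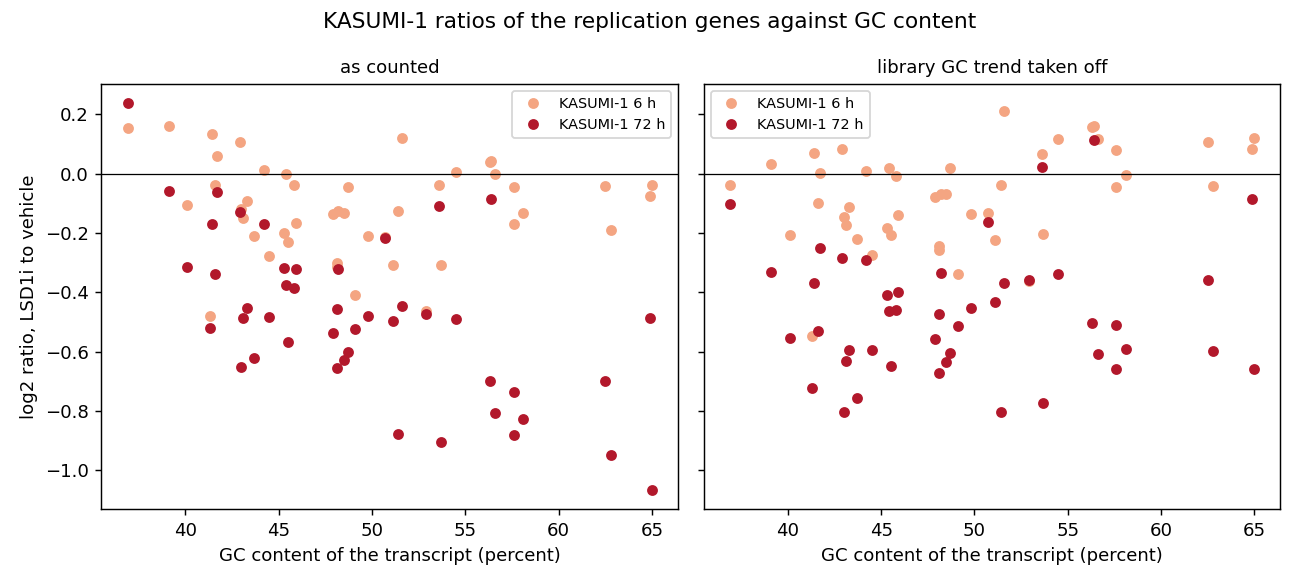
Log2 ratio of LSD1i to vehicle in KASUMI-1 at 6 h and at 72 h against the GC content of the transcript in percent, 1 point for each of the 45 genes, as counted on the left and with the GC trend of each library removed on the right. As counted, the 72 h ratios run lower with higher GC (Pearson -0.63), down to POLD1 at 65.0% GC and -1.07. At 6 h the correlation is -0.07 over the 45 genes and -0.36 over all 10287 genes compared.

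In THP-1 few of the same genes passed the test. Of the 45, POLE was the 1 gene called lower (2.22%, against 2.85% of all genes), and none was called higher, against 6.51% of all genes (2 at an unadjusted p below 0.05). The median log2 change was -0.05, against -0.01 over all genes, and 31 of 45 estimates were negative (68.9%, against 51.7% of all genes). POLE, the catalytic subunit of polymerase epsilon (NCBI36 chr12:131710421-131774018, minus strand), stood at 68.6 CPM with LSD1i at 24 h and 64.0 CPM with LSD1i at 72 h, against 85.9 CPM with vehicle at 24 h and 99.6 CPM with vehicle at 72 h. The groups did not overlap, and the log2 change was -0.48 ± 0.13 (adjusted p = 0.0185). The call needed both pairs: leaving out 24 h gave -0.66 with an adjusted p of 0.0723, and leaving out 72 h gave -0.34 with an adjusted p of 0.638. In KASUMI-1 the same gene was at 114 and 109 CPM with LSD1i and at 111 and 116 CPM with vehicle, a log2 estimate of -0.02.

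Near the threshold in THP-1, RPA2 was at 110 CPM with LSD1i at 24 h and 96.8 CPM with LSD1i at 72 h, against 90.7 CPM with vehicle at 24 h and 72.7 CPM with vehicle at 72 h, an estimate of 0.34 (adjusted p = 0.0955). RFC2, a clamp loader subunit, also had an estimate of 0.34 (adjusted p = 0.0879), and CDT1 one of -0.44 (adjusted p = 0.0858). At 24 h the median ratio was 0.001 (all genes 0), and 22 of 45 were below 0 (48.9%, against 49.8% of all genes). None was more than 1.5-fold lower, against 6.71% of all genes. POLE was lowest at -0.32, POLE2, CCNE2 and CDC45 followed, ending with CDC45 at -0.15, and MCM3 was highest at 0.53, above POLA2, RFC2 and RPA2 at 0.28 each. At 72 h the median was -0.07 (all genes -0.004), and 29 of 45 were below 0 (64.4%, against 50.5% of all genes). More than 1.5-fold lower were 3, against 9.54% of all genes. These were CDT1 at -0.73, POLE at -0.64 and POLD1 at -0.59, followed by LIG1 at -0.58, and the highest were RPA2 and RFC2 at 0.41, GINS3 at 0.29 and PCNA at 0.22. With the GC trend removed none of the 45 was past 1.5-fold. With library totals as the scale 7 of the 45 were past it at 72 h, and the median of all genes in that pair was then -0.13.

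The levels in THP-1 also differed between the times. With vehicle, 32 of the 45 genes were lower at 72 h than at 24 h (71.1%, against 46.7% of all genes). The median log2 ratio was -0.15 (all genes 0.02), with TIPIN lowest at -0.53 and TK1 highest at 0.39. None was past 1.5-fold in either direction, against 4.49% of all genes lower and 7.17% higher. With LSD1i, 41 of 45 were lower at 72 h than at 24 h (91.1%, against 49.2% of all genes). The median was then -0.28, and MCM3 was the 1 gene past 1.5-fold, at -0.69. The LSD1i ratio was lower at 72 h than at 24 h for 28 of 45 (62.2%, against 49.9% of all genes).

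Whether the response differed between the lines was tested as the difference of the LSD1i changes, KASUMI-1 minus THP-1. Of the 45 genes, 2 passed in the lower direction (4.44%, against 3.07% of all genes), and none in the higher direction, against 2.62% (1 at an unadjusted p below 0.05). The difference was -0.74 ± 0.20 on the log2 scale for GINS3 (adjusted p = 0.04) and -0.73 ± 0.17 for RPA2 (adjusted p = 0.0196). GINS3 was below vehicle in both KASUMI-1 pairs and above it in both THP-1 pairs, at 35.3 CPM with LSD1i at 24 h and 31.3 CPM with LSD1i at 72 h, against 29.9 CPM with vehicle at 24 h and 25.6 CPM with vehicle at 72 h. RPA2 had the same pattern. TIPIN (-0.60, adjusted p = 0.064) and GINS2 (-0.54, adjusted p = 0.0767) came next. For the 45 genes the median difference was -0.26, against 0.03 over all genes, and 39 were negative (86.7%, against 47.9% of all genes). So 9 of the 11 genes called in KASUMI-1 were not shown to respond differently in THP-1. Without the KASUMI-1 72 h pair RPA2 stayed past the threshold (-0.66, adjusted p = 0.0487) and GINS3 did not (-0.57, adjusted p = 0.195). Without the THP-1 24 h or 72 h pair neither passed (adjusted p 0.22 and 0.231 for GINS3, 0.147 and 0.212 for RPA2), and without the KASUMI-1 6 h pair 9 of the 45 passed.

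Over all 4 pairs together no replication gene was called lower, against 0.785% of all genes, and none higher, against 3.8%. At an unadjusted p below 0.05, 10 were lower and 0 higher, and DESeq2 also called 0. The median was -0.18, with 40 of 45 negative (88.9%, against 50.4% of all genes). Genes below vehicle in every one of the 4 pairs numbered 10 (22.2%, against 9.95% of all genes). These were the ring subunit MCM4, CDC45, CDT1, the polymerase epsilon subunit POLE2, FEN1, UNG, RRM1, RRM2, CHAF1A and CHAF1B. Some ratios were close to level: in THP-1 at 24 h CHAF1A and UNG were at -0.01 and FEN1 at -0.02. With the GC trend removed CDT1, CHAF1A and CHAF1B were above 0 in KASUMI-1 at 6 h, at 0.08, 0.08 and 0.02. The other genes named here then stayed below 0 in every pair.

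Without the inhibitor, the share of these genes that differed between the lines was not above that of all genes. Between the vehicle libraries, KASUMI-1 over THP-1, 13 of the 45 were lower in KASUMI-1 (28.9%, against 30.1% of all 15456 genes tested there) and 3 were higher (6.67%, against 26.4%), with a median log2 difference of -0.26, against -0.002 over all genes. The vehicle times differ between the lines at the first point, 6 h in KASUMI-1 and 24 h in THP-1, and cannot be told apart from the line there. CCNE2 stood furthest apart, at 36.6 CPM at 6 h and 25.1 CPM at 72 h in KASUMI-1, against 139 CPM at 24 h and 104 CPM at 72 h in THP-1, a log2 difference of -1.98 ± 0.23 (adjusted p = 3.46e-05). GINS4 was next, at 23.4 CPM at 6 h and 24.1 CPM at 72 h in KASUMI-1, against 73.4 CPM at 24 h and 73.0 CPM at 72 h in THP-1, a log2 difference of -1.63 ± 0.17 (adjusted p = 1.41e-05). For both genes the lines were far apart beside the spread within a line.

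The other 11 lower genes were RFC3 at -1.07, MCM3 at -0.96, MCM4 at -0.92, PRIM1 at -0.84, TIPIN at -0.79, PRIM2 at -0.75, POLE2 at -0.70, SLBP, the histone mRNA stem-loop binding protein, at -0.60, POLA2 at -0.48, MCM6 at -0.45 and RRM1 at -0.42. Both primase subunits, PRIM1 and PRIM2, and 3 of the 6 ring subunits are among them. The 3 higher genes were RPA2 at 1.04 ± 0.18, UNG at 0.81 ± 0.19 and PCNA at 0.72 ± 0.19. RPA2 was at 184 CPM at 6 h and 153 CPM at 72 h in KASUMI-1, against 90.7 CPM at 24 h and 72.7 CPM at 72 h in THP-1. Without the THP-1 vehicle library at 24 h 7 were called lower, with library totals 25 and with the GC trend removed 20; without either KASUMI-1 vehicle library 5 were called higher.

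Per kilobase of exon, the median level of the 45 genes in KASUMI-1 was 31.6 RPKM with LSD1i at 6 h and 23.9 RPKM with LSD1i at 72 h, against 35.0 RPKM with vehicle at 6 h and 32.1 RPKM with vehicle at 72 h. In THP-1 it was 42.0 RPKM with LSD1i at 24 h and 34.0 RPKM with LSD1i at 72 h, against 44.2 RPKM with vehicle at 24 h and 34.8 RPKM with vehicle at 72 h. PCNA had the highest level in every KASUMI-1 library, at 173 to 274 RPKM, and GINS4 the lowest, at 4.74 to 6.89 RPKM. In THP-1 the highest was TYMS or, with LSD1i at 24 h, MCM3 at 268 RPKM, and the lowest was POLE or POLA1, at 7.16 to 9.61 RPKM.

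**Figure D5:**
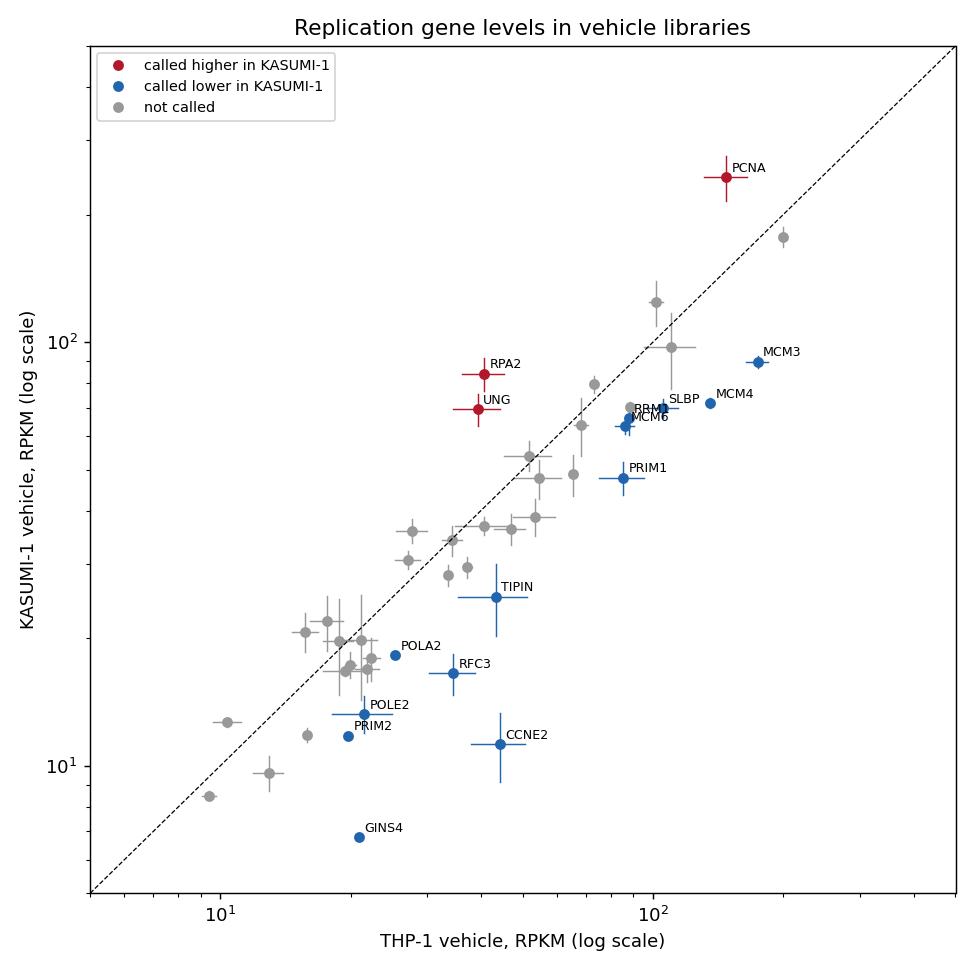
Level of the 45 genes with vehicle, as RPKM on log axes, KASUMI-1 against THP-1, each point the mean of the 2 vehicle libraries of a line, with lines to the 2 libraries themselves and the dashed diagonal at equal levels. CCNE2 and GINS4 lie furthest on the THP-1 side (log2 differences -1.98 and -1.63), and RPA2 lies furthest on the KASUMI-1 side (1.04).

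Other genes of the pathway were taken from lists by role. Of 32 other replication genes 4 fell in KASUMI-1 (12.5%, against 5.09% of all genes) and none was called higher (median log2 change -0.15): GMNN, geminin, the inhibitor of CDT1, at -0.54, POLD2 and POLE4, accessory polymerase subunits, at -0.57 and -0.53, and RNASEH2A, which removes RNA from DNA, at -0.43. In THP-1 the 1 gene called of the 32 was CHTF18, of an alternative clamp loader, at -0.65 (3.12%, near the 2.85% of all genes). Of 15 further genes of nucleotide supply and chromatin assembly, 2 fell in KASUMI-1 (13.3% of the list, against 5.09% of all genes). These were DTYMK, thymidylate kinase, at -0.80 ± 0.15 and DCTPP1, a dCTP pyrophosphatase, at -0.82 ± 0.13. RRM2B, the p53-induced ribonucleotide reductase subunit, rose there by 0.88 ± 0.15, and in THP-1 SAMHD1, which degrades dNTPs, rose by 0.55, in each line 1 of 15 (6.67%), near the 7.02% of all genes in KASUMI-1 and the 6.51% in THP-1. The difference between the lines passed for POLE4 at -0.91, 1 of the 32 genes (3.12%, near the 3.07% of all genes called lower). It also passed for DTYMK at -0.95 and DCTPP1 at -0.96, 2 of the 15 genes (13.3%, against 3.07%).

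Of 25 regulators of E2F, RB and G1/S, 3 fell (12%, against 5.09% of all genes) and 2 rose (8.0%, near the 7.02% of all genes) in KASUMI-1. MYBL2, a transcription factor of the S and G2 programmes, was at -0.72 ± 0.17, CDC25A, the phosphatase that activates CDK2, at -0.47 and CDK4, the cyclin D kinase, at -0.46. RB1, the repressor of E2F, rose by 1.0 ± 0.14 and CDKN1B, the CDK inhibitor p27, by 0.54 ± 0.12. In THP-1 RB1 rose by 0.63 and CDK6, the second cyclin D kinase, fell by 0.77 on the log2 scale, 1 of 25 in each direction (4.0%, against 6.51% of all genes higher and 2.85% lower). The difference between the lines passed for CDKN1B at 0.91 and CDK6 at 1.16, 2 of 25 (8.0%, against 2.62% of all genes called higher). Of 30 genes of G2 and mitosis, 2 fell in KASUMI-1, CDC20 at -0.52 and BIRC5 at -0.49 (6.67%, near the 5.09% of all genes). Negative estimates were found for 27 of the 30 (90%, against 47.8% of all genes and 95.6% of the replication genes). Their median was -0.18, beside -0.33 for the replication genes. At 72 h in KASUMI-1 the median of these 30 was -0.33 and that of the replication genes -0.48. Between the LSD1i libraries of KASUMI-1, 72 h over 6 h, the medians were -0.48 for these 30 and -0.43 for the replication genes. Between the vehicle libraries they were -0.19 and -0.003. In THP-1 none of the 30 was called, and the median was 0.005.

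A further list held 7 genes known to answer to LSD1 inhibition or to be its target. It was chosen with earlier results of these data known, so its calls cannot show independently that the inhibitor had acted. CD86, LY96, ITGAM, LYZ and CSF1R were called higher in both lines and CD14 in THP-1. These are 71.4% of the list in KASUMI-1 (7.02% of all genes) and 85.7% in THP-1 (6.51% of all genes). In KASUMI-1 CD14 was not called, and its counts were at or near 0. KDM1A itself was not called in either line, at -0.17 in KASUMI-1 and -0.07 in THP-1.

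Of the 45 genes, 39 had a promoter in the RefSeq table. Those without were MCM4, MCM5, GINS4, RPA2, RPA3 and CCNE2. In the 250 bases before the start, 13 of 39 (33.3%) held at least 1 of the E2F letters named above on either strand, against 2.79% of 27305 promoters of the same length. CCAAT was found in 20 of 39 (51.3%, against 33.0% of all promoters) and TTTGAA, the core of the CHR element of G2 and mitosis genes, in 1 of 39 (2.56%, against 13.6%). Of 24 promoters of the G2 and mitosis list, 2 held the E2F letters, 18 held CCAAT and 12 held TTTGAA. Among the replication genes the E2F letters were in 2 of the 10 called lower in KASUMI-1 with a promoter (20.0%) and in 11 of the 29 not called (37.9%). A match is a run of letters and not a bound site, matches may overlap, and the table lists more than 1 start for 10 of the 39 genes. With any listed start the E2F letters were in 16 of 39, in 4 of the 10 called (40.0%) and in 12 of the 29 not called (41.4%), so the gap between called and not called genes depends on which start is used.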

How the data were processed

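RNA of 8 libraries was measured, 1 for each line, agent and time, from TruSeq libraries. Per the file headers, the deposited table holds raw counts of reads per gene from featureCounts with an Ensembl 54 annotation of NCBI36, counted without strand and without reads that map to several places. Tools named in the submitters' processing notes are TopHat2 2.0.10, featureCounts 1.5.2, Subread, edgeR and FastQC 0.10.0, with the build hg18. The unit of 1 column of the same counts could only be listed under another heading, and its values were used as counts.

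The 45 genes, the other gene lists, the markers and the tests were chosen with earlier results of these data known. From the counts, CPM and RPKM were computed with TMM factors in edgeR 4.0.16 (R 4.3.3). Genes were kept by filterByExpr with a minimum count of 10, which left 16060 of 33045, and 9387 had no read. The test was edgeR's quasi-likelihood test on all genes, with terms for the 4 pairs of line and time and an LSD1i term in each line; the fit had 2 residual degrees of freedom and a common dispersion of 0.0115. All 4 pairs together, and the vehicle libraries of the lines, were fitted apart. Genes at a Benjamini-Hochberg adjusted p of at most 0.05 were called. Standard errors are approximate, from the fitted change and its test statistic. Single ratios used a prior count of 2 and a fold of 1.5, and their 95% intervals cover counting error only.

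The rule for named genes took every one of the 45 called in a test, the 4 highest and 4 lowest ratios of each pair, and, of the other lists, up to 4 called genes a list by size; promoters were printed for genes called in KASUMI-1 that hold the E2F letters. Genes near the threshold, 1 more E2F, RB or G1/S regulator, and genes set beside a called paralogue or partner were named after their values were seen. GC content came from the longest coding transcript of each gene in the reference, for 83.7% of tested genes, and its correction was chosen after seeing the data, as was the use of any listed start. Promoters came from RefSeq on GRCh38.p14, and gene coordinates from the table on NCBI36; no position was moved between builds. The fits were tested on simulated data first. There the KASUMI-1 test recovered 29.9% of 1.5-fold changes, 79.1% of 2-fold changes and 89.4% of 3-fold changes. A gene that was not called is therefore not shown to be unchanged. A planned search of the protein sequences for the PCNA-binding box was not run. Alternatives were other scalings, no filter, DESeq2 1.42.0, no pair terms, each line alone, each pair left out and a 2-fold limit. All 8 sample columns had a group. The level of 1 of the marker genes is not reported here.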

Additional observations from a re-analysis of the deposited data

Results flagged for a closer look

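The LSD1i response differed between the lines by a test of the difference itself for GINS3 and RPA2 (edgeR's quasi-likelihood test over 16060 genes). They are 4.44% of the 45 genes, near the 3.07% of all genes called lower in this test. For GINS3, a subunit of the GINS complex, the log2 difference KASUMI-1 minus THP-1 was -0.74, with changes of -0.47 in KASUMI-1 and 0.26 in THP-1; the change was negative in 2 of 2 KASUMI-1 pairs and positive in 2 of 2 THP-1 pairs. For RPA2, of the single-strand binding protein, it was -0.73, with changes of -0.39 in KASUMI-1 and 0.34 in THP-1 and the same directions in every pair. The change in THP-1 was not called for either gene. Both calls ended when either THP-1 pair was left out, with library totals as the scale, and without pair terms.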

How the results depend on the processing

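Under the alternatives run, no called gene turned its direction. Medians near 0 did: in THP-1 at 24 h the median ratio of 0.001 was -0.06 with library totals and -0.04 with the GC trend removed, with 30 in place of 22 of 45 below 0, and between the KASUMI-1 vehicle libraries -0.003 was 0.03 with library totals. In KASUMI-1, where 11 genes were called lower, 12 were called with RLE factors, 14 with DESeq2, 11 without the filter and 9 with GC-corrected offsets; library totals gave 1, no pair terms 0 and KASUMI-1 alone 3, and leaving out a pair gave 0 to 19. The 0 came without the KASUMI-1 72 h pair, the 19 without its 6 h pair, and 4 and 5 without the THP-1 24 h and 72 h pairs. In THP-1, 1 called lower became 2 without the filter, 0 without pair terms, 2 in THP-1 alone and 0 to 3 with a pair left out, and 0 called higher became 2 in THP-1 alone and 0 to 2 with a pair left out. The 2 genes whose response differed became 0 with library totals, 0 without pair terms and 0 to 9 with a pair left out, and GC-corrected offsets gave 1 gene higher in KASUMI-1 minus THP-1, POLE at 0.62. Between vehicle libraries, 13 lower became 25 with library totals, 20 with GC-corrected offsets and 7 to 15 with a library left out, and 3 higher became 2 to 5. Of single ratios, a 2-fold limit left 1 of 15 in KASUMI-1 at 72 h, 0 of 3 in THP-1 at 72 h and 0 of 3 between the KASUMI-1 vehicle libraries; GC-corrected offsets left 0 and 0 in the last 2, and library totals gave 7 in THP-1 at 72 h. The cause was not tested for any of these. Without pair terms the spread of levels between times also enters the error. With a pair or line left out fewer libraries set that error, with the lone pair of a line assumed to vary like the other line. No paired analysis by replicate number was possible because each group has 1 library, and the pairing used is by line and time. In all, 127 of the counts of these genes under an alternative stayed within 1.5 times and 35 moved. Of 2070 values of single genes, 123 changed sign, none of them with a call. Depth did not limit detection of the 45 genes, each with at least 1578 reads in some library, but 1 library per group limits every ratio.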
